A study of Mus musculus with 2 samples.

Results

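Natural killer (NK) cells of a mouse melanoma were taken here as 68 of the 4236 cells that passed the limits on quality, or 1.61% (95% exact Clopper-Pearson interval 1.25 to 2.03). A cell was kept with at least 1000 UMIs (unique molecular identifiers, each a counted mRNA molecule), at least 500 genes and at most 10% mitochondrial UMIs. It was an NK cell with at least 3 UMIs over 6 receptor genes (Ncr1, Klrb1c, Klra4, Klra7, Klra8 and Klre1), fewer than 3 UMIs over Cd3d, Cd3e and Cd3g, and less than 1000 CPM (UMIs of a gene per 1000000 UMIs) of the macrophage genes C1qa, C1qb and C1qc. The cells were set against 223 CD8 T cells, or 5.26% of kept cells (4.61 to 5.98), with at least 3 CD3 UMIs, at least 2 UMIs of Cd8a and Cd8b1 and the same C1q limit. Both sets were thus chosen by the measured UMIs of these 14 genes, whose levels are given as a description and support nothing.

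The cells were immune cells sorted from a B78ChOVA melanoma, a mouse tumour line grown for 16 days after injection under the skin, and all cells of the series carry this tumour and time. Live sections about 160 µm thick were marked by ZipSeq, in which light places DNA barcodes (here ZC1, ZC2 and ZC3) on the cells of chosen regions before the tissue is taken apart. The tissue regions behind the barcodes, the host strain and the number of tumours are not stated in the labels. The gene expression and spatial barcode libraries came from the same cells, so each set is 1 sample with no replicate, no test was made, and the intervals below cover counting error only and say nothing of differences between tumours.

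NK cells are innate lymphocytes that kill stressed or transformed cells without a rearranged antigen receptor. They weigh signals from activating receptors such as NKp46 and NKG2D, which work through small adaptor proteins, against inhibitory receptors for MHC class I, such as many of the Ly49 family and CD94/NKG2A. Killing runs through perforin and granzymes held in granules, and the chemokines and interferon-γ they secrete act on dendritic cells, macrophages and T cells; CD8 T cells share the granule machinery but see antigen through the T cell receptor.

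Promoter sequences of 3 genes that stand for the receptors, granules and secreted factors of these cells are shown, since Ncr1 defined the cells and Gzma and Xcl1 had the highest ratios to CD8 T cells of the granule and secreted factor lists. Each is the 300 bases from 250 before to 50 after the gene's first listed start, 5′ to 3′ in the sense of the gene, from RefSeq on GRCm38.p6: Ncr1 at chr7:4337465-4337764 on the plus strand, Gzma at chr13:113100932-113101231 on the minus strand, and Xcl1 at chr1:164935473-164935772 on the minus strand. Capitals mark matches on either strand to TGTGGT, the core bound by RUNX factors, or to GGTGTGA, bound by T-box factors such as T-bet and Eomes.
Ncr1: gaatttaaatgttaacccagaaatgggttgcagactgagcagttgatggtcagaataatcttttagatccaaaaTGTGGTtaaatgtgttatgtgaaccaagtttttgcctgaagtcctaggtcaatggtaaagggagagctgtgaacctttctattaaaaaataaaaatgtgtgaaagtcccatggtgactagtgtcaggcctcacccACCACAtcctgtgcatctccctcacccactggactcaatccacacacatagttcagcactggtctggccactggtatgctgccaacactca
Gzma: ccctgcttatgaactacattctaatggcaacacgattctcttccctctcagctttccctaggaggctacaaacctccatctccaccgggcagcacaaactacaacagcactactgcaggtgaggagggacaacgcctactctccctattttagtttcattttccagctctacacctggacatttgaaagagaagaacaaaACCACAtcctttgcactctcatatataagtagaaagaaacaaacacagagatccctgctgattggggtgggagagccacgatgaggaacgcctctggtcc
Xcl1: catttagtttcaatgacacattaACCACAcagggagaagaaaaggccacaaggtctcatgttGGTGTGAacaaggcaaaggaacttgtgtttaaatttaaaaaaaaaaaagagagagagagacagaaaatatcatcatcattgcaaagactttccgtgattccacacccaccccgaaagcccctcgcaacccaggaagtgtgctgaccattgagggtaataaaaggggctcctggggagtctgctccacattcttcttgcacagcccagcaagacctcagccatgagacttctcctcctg
The RUNX letters were found 2 times in the Ncr1 promoter and 1 time each in those of Gzma and Xcl1, and the T-box letters 1 time in that of Xcl1. Of 32851 promoters of the same length, 16.8% held the RUNX letters and 3.98% the T-box letters. Another motif searched, TTCNNNGAA of STAT factors, was in 8.3% of all promoters and in none of these windows. Promoters of Klrb1c, Klre1 and Eomes were also searched and are not shown. The RUNX letters were found 1 time for Klrb1c and 1 time at the first listed start of Klre1. The later start of Klre1 and Eomes held no match to any of these motifs. The matches describe these letters and are not shown to be bound.

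The 68 NK cells held 623207 gene UMIs, with 2598 to 37241 and a median of 6338 per cell, against 3105418 UMIs and a median of 8785 in the CD8 T cells. Median genes per cell were 2092 in NK cells and 2479 in CD8 T cells, and the median mitochondrial share was 4.17% in NK cells and 3.94% in CD8 T cells. The kept cells as a whole were deeper, with a median of 23132 UMIs. The cut at 3 receptor UMIs lay in a thin range: among cells that met the CD3 and C1q limits, 787 had 0 receptor UMIs, 26 had 1, 9 had 2, 4 had 3, 2 had 4 and 2 had 5. Of 136 kept cells with at least 3 receptor UMIs, 47 had at least 3 CD3 UMIs, and 21 of the remaining 89 were left out by the C1q limit. The 4 cells with 3 receptor UMIs, just inside the cut, held 7 UMIs of Xcl1, 0 of Eomes and 51 of Klrd1, and 3 of them were the myeloid-rich barcodes described below. The 9 cells with 2, just outside it, held 29, 1 and 93 UMIs of these genes, and 6 of them were myeloid-rich.

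Of the genes of the rule, Ncr1, which encodes the activating receptor NKp46, had 308 CPM in 53 of 68 NK cells and 0 UMIs in CD8 T cells. Klrb1c, the gene of NK1.1, had 220 CPM in 48 NK cells and 1.29 CPM in 3 CD8 T cells. Klre1, a lectin-like receptor gene, was the most widespread, with 409 CPM in 63 NK cells and 27.4 CPM in 31 CD8 T cells. The Ly49 genes Klra4, Klra7 and Klra8 were found in 28, 39 and 34 NK cells and in 0, 3 and 0 CD8 T cells. No NK cell had a UMI of Cd3e, and Cd3d and Cd3g had 7 and 2 UMIs in all NK cells.

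Of the 5 markers of NK cells (Ncr1, Klrb1c, Klre1, Xcl1 and Eomes), at least 3 were found in 61 of 68 NK cells and all 5 in 23. Among CD8 T cells 5 of 223 had 3 markers and none had more, and among 2573 cells with C1q at or above the limit and fewer than 3 NK receptor UMIs 45 had 1 marker and none had more. Because Ncr1, Klrb1c and Klre1 served in the rule, and the C1q cells were limited in receptor UMIs, these counts are a description and support nothing. Xcl1 and Eomes, which the rule did not use, were both present. Xcl1, a chemokine that draws cross-presenting dendritic cells, had a UMI in 60 of 68 NK cells and 72 of 223 CD8 T cells. Eomes, the T-box factor that sets conventional NK cells apart from other innate lymphocytes, had a UMI in 40 NK cells and 82 CD8 T cells. The markers of ILC2 and ILC3, the helper-like innate lymphocytes, were at 0 UMIs in NK cells for all 8 genes, among them Il1rl1, Il13, Il5, Areg, Il22, Il23r and Il17a, where 0 of 68 allows up to 4.41% of cells with a UMI and sets no limit on cells that express a gene.

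**Figure D1:**
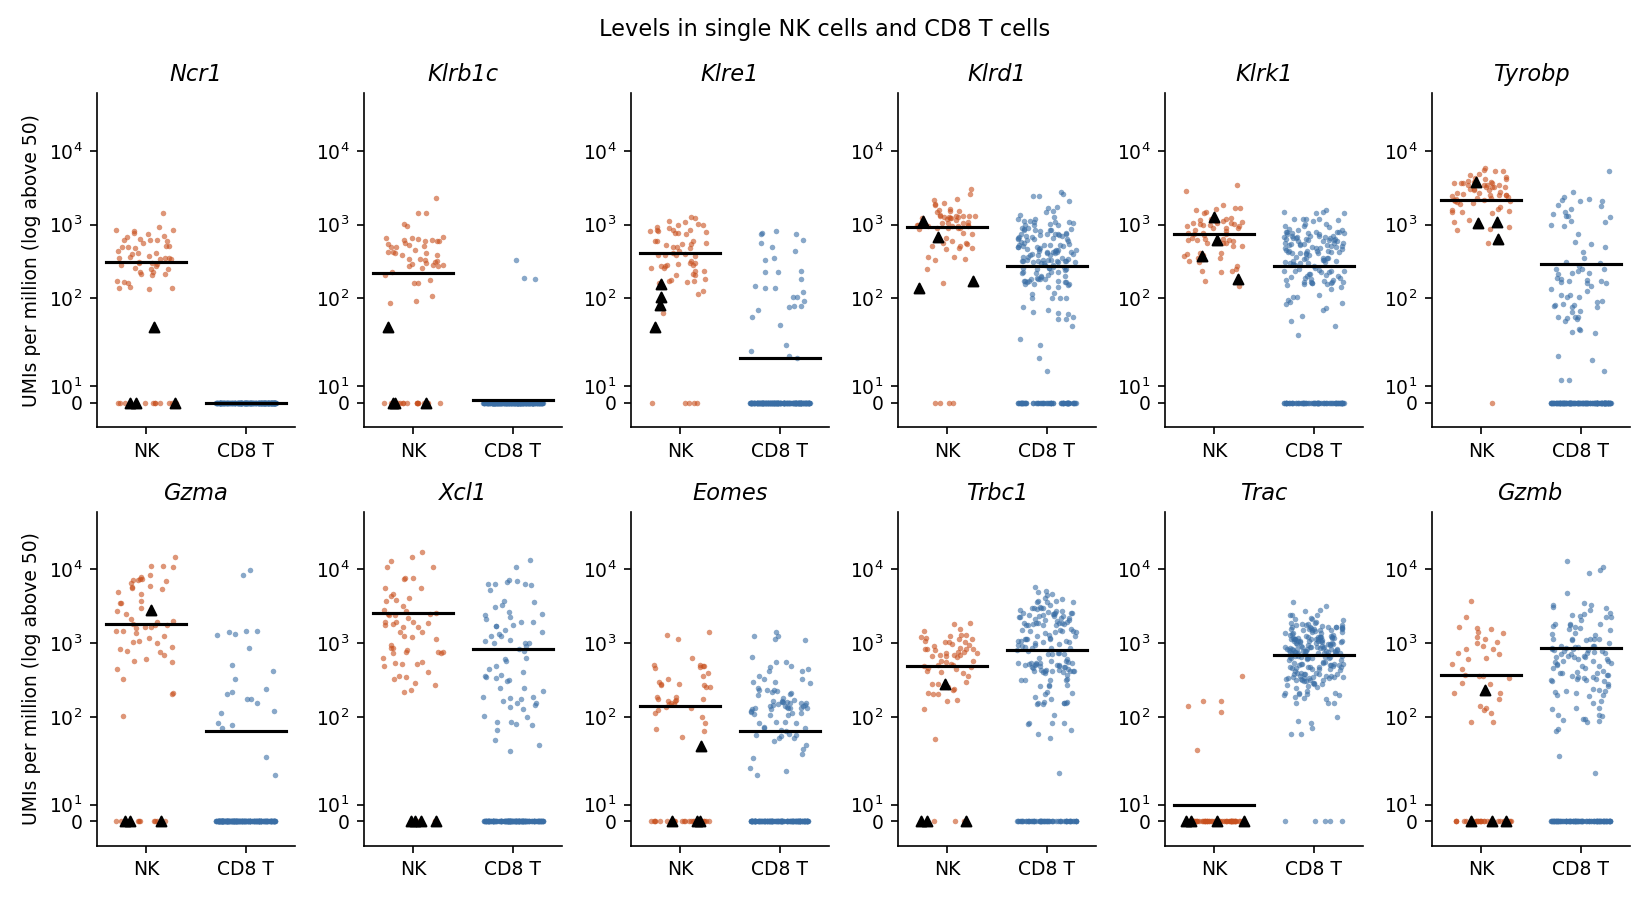
Level of selected genes in each cell (CPM, log axis above 50), with the 68 NK cells left of the 223 CD8 T cells, points for single cells, bars for the level over the summed set and black triangles for the 4 myeloid-rich NK barcodes. Gzma, Xcl1 and Tyrobp lie high in most NK cells and at 0 in most CD8 T cells, while Gzmb and Trbc1 spread widely in both sets and Trac is above 0 in 6 NK cells.

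Of the 68 barcodes, 4 stood apart from the rest. Their level summed over 12 myeloid and MHC class II genes was 43782 to 101295 CPM, against a median of 769 and a highest value of 5916 CPM in the other 64. One of them had 504 UMIs of the macrophage and monocyte gene Lyz2 together with 62 of Gzma and 8 receptor UMIs. The other 3 passed the rule with 3 UMIs of Klre1 alone, had 0 UMIs of Gzma and Xcl1, and held 412 to 637 UMIs of Cst3 and 545 to 958 of Cd74, genes high in dendritic cells. These 4 barcodes held 17.2% of all NK UMIs, so a gene absent from them gains 1.21-fold in CPM when they are left out. Among CD8 T cells 17 barcodes met the same measure of 10000 CPM or more, and results that turn on such barcodes are given below with both sets free of them (64 NK and 206 CD8 T cells).

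The marker lists of other cell types are given for the 68 NK cells and for the 64 without those barcodes. The 12 genes that set the barcodes apart, with C1q, hold all 10 macrophage markers and Cd74 and H2-Ab1 of the dendritic cell markers. Low sums of these in the 64 thus follow from the choice of cells and support nothing. The CD8 T cells here keep their 17 barcodes. With both sets free of such barcodes the macrophage markers had a median ratio of 0.917, with 0 of 4 lower by 2-fold. The 10 macrophage markers summed to 1353 CPM in the 68 NK cells, 401 CPM in the 64 and 1771 CPM in CD8 T cells, against 23507 CPM in free RNA, the pool of barcodes with 10 to 100 UMIs. The 9 dendritic cell markers summed to 5815 CPM in the 68 NK cells, 465 CPM in the 64 and 3715 CPM in CD8 T cells, with Flt3, Xcr1, Clec9a, Cd209a and Siglech at 0 in the 64. The 7 monocyte markers summed to 1202 CPM in the 68 NK cells, 922 CPM in the 64 and 2341 CPM in CD8 T cells. Of 6 B cell markers, Cd79a, Ms4a1 and Pax5 were at 0 in NK cells, while Ighm, the μ heavy chain gene, had 175 CPM in NK cells and 49.6 CPM in CD8 T cells, and 124 CPM in free RNA. Of 8 neutrophil and basophil markers 7 were at 0 in NK cells, and the 6 melanoma markers summed to 27.3 CPM in NK cells and 9.66 CPM in CD8 T cells. The part of these RNAs in the results below was not tested beyond the values without the barcodes.

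The CD8 T cells also held a subset that the NK cells lacked. A UMI of dsRed, a red fluorescent protein gene whose carrier the labels do not name, was found in 0 of 68 NK cells and 39 of 223 CD8 T cells, and Xist in 0 NK cells and 38 CD8 T cells. Y-linked genes had 132 UMIs in 56 of 68 NK cells, 5 UMIs in 3 of the 39 CD8 T cells with dsRed and 449 UMIs in 147 of the 184 without. The 41 CD8 T cells with dsRed or Xist held 30.6% of the CD8 T UMIs, and values against the other 182 are given where they differ.

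Across the 7834 genes that had 30 or more UMIs in the 2 sets together and 3 or more expected in the smaller one, 341 (4.35%) were 2-fold or more higher in NK than in CD8 T cells and 792 (10.1%) were 2-fold or more lower, and the median ratio was 0.919. With the 4 barcodes left out, 4.85% were higher and 13.4% lower, against CD8 T cells without dsRed or Xist 4.28% and 8.38%, with both left out 4.24% and 11.8%, and with both sets free of myeloid-rich barcodes 5.3% and 11.4%. The 10 genes that led the higher side among abundant genes were Gzma, Car2, Gzmc, Spry2, Satb1, Tyrobp, Txk, Anxa1, Fcer1g and Cd9, at ratios of 28.7 down to 4.36. The lower side was led by Cxcr6, Tnfrsf4, Trac, Bcl11b, Cd5, Themis, Xist, Gzmk, Nrn1 and Gm8369, of which Trac, Cd5, Themis and Bcl11b belong to T cell identity. Gm8369 is a predicted gene, with 6.42 CPM in NK cells and 213 CPM in CD8 T cells.

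Genes of the list named for inhibitory NK receptors were mostly higher in NK cells. Not all of its members encode inhibitory receptors, as it also holds Klrd1 and the NKR-P1 genes Klrb1a and Klrb1f. Of its 13 genes, 11 could be compared. Among these 7 were 2-fold or more higher in NK cells and 1 was lower, against 4.35% and 10.1% of all genes. The median ratio was 3.34. Klra3, Klra5, Klra9, Klrb1a and Klrb1f share families with the rule genes Klra4, Klra7, Klra8 and Klrb1c. Klra5 also reached the UMI minimum through NK cells alone. The count and the median may thus follow in part from the choice of cells and genes, and their setting against all genes supports nothing. With both sets free of myeloid-rich barcodes 10 genes could be compared, and their median of 9.44 lay between Klrd1, at 3.40, and Klra3, at 15.5. Klrd1 itself was at 3.34 with all cells. Klrd1, which encodes CD94, the shared partner of the NKG2 receptors, had 927 CPM in NK cells (853 to 1006) and 278 CPM in CD8 T cells (260 to 297). In single cells of the 64 it ran from 0 to 3081 CPM with a median of 997. Its ratio was 3.34 (exact conditional binomial interval 3.00 to 3.71), while that of Klrc1, the inhibitory partner NKG2A, was 1.47 (1.16 to 1.85). The intervals of these ratios did not overlap. Klrd1 was not confined to lymphocytes. The 787 cells with 0 receptor UMIs within the CD3 and C1q limits, 720 of them myeloid-rich, held 991 Klrd1 UMIs in 151 cells.

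The Ly49 genes outside the rule were rare in CD8 T cells. Klra3 had 130 CPM in 17 of 68 NK cells and 9.02 CPM in 15 of 223 CD8 T cells. Klra9 had 132 CPM in 23 NK cells and 1.93 CPM in 2 CD8 T cells, a ratio of 68.1 (30 to 191). Klra5 had 35 UMIs in 5 NK cells and 0 in CD8 T cells, at least 58.1-fold higher with the floor of 3 counts over the set. Ly49 genes are close copies of each other, so reads may be split between them and single members are uncertain. Each of these 3 was present in a minority of NK cells; the family is known to be switched on in some NK cells and not in others.

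The Ly49 genes with a UMI in each cell were counted over Klra1, Klra3, Klra4, Klra5, Klra7, Klra8 and Klra9. As Klra4, Klra7 and Klra8 served in the rule, these counts are a description and support nothing. Of the 64 NK cells, 8 had a UMI of none of the 7, 10 of 1 gene, 13 of 2, 19 of 3, 12 of 4 and 2 of 5. Of the 223 CD8 T cells, 205 had none, 15 had 1 and 3 had 2. A UMI can be missed at this depth, and reads split between close copies or free RNA can add a gene, so the true numbers may lie on either side.

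The NKR-P1 family lay in the same direction. Klrb1f had 122 CPM in 41 NK cells and 3.86 CPM in 9 CD8 T cells, a ratio of 31.6 (17.1 to 63.8). Klrb1a had 53.0 CPM in 19 NK cells and 0.966 CPM in 2 CD8 T cells, a ratio of 54.8, and the ratios of Klrb1f and Klrb1a were 52.5 and 114 against CD8 T cells without dsRed or Xist. Klrg1, an inhibitory receptor that marks late maturation, was scarce in both, with 32.1 CPM in 9 NK cells and 12.6 CPM in 20 CD8 T cells. After each cell was thinned to 2000 UMIs, Klrb1f had a UMI in 28.1% of the 64 NK cells, 0% of CD8 T cells and 0.0395% of C1q cells. The median depth before thinning was 6120 UMIs in the 64 NK cells, 8785 in CD8 T cells and 28117 in C1q cells, and thinning left out 40 C1q cells.

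Activating receptors were mixed. Of 19 activating receptor, adaptor and signalling genes compared, 8 were 2-fold or more higher in NK cells and 4 lower, against 4.35% and 10.1% of all genes. The median ratio was 1.06. Klrk1, the gene of NKG2D, which sees stress ligands on tumour cells, had 756 CPM in NK cells (689 to 827) and 278 CPM in CD8 T cells (259 to 297), with a UMI in all 68 NK cells, the 4 myeloid-rich barcodes among them. It was not confined to lymphocytes. The 787 cells with 0 receptor UMIs within the CD3 and C1q limits, 720 of them myeloid-rich, held 1320 Klrk1 UMIs. Klrc2, an activating partner of CD94, had 117 CPM in NK cells and 44.8 CPM in CD8 T cells. Crtam had 154 CPM in NK cells and 74.4 CPM in CD8 T cells, but in 18 of 68 NK cells only. Cd226, the gene of DNAM-1, went the other way, with 12.8 CPM in 7 NK cells and 58.6 CPM in 89 CD8 T cells, a ratio of 0.219 (0.0932 to 0.441). Slamf6 was also lower in NK cells, at 8.02 CPM against 41.9 CPM in CD8 T cells.

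Of the adaptors, DAP12 and the γ chain were higher in NK cells and DAP10 was not. Tyrobp, the gene of DAP12, had 2187 CPM in NK cells and 297 CPM in CD8 T cells, and Fcer1g, the γ chain that carries NKp46 signals, had 2059 CPM in NK cells and 361 CPM in CD8 T cells. In single cells of the 64 the medians were 2718 CPM for Tyrobp and 2476 CPM for Fcer1g, and in CD8 T cells both medians were 0. Both genes are also abundant in macrophages and in free RNA (1990 and 4078 CPM), and their ratios of 7.36 and 5.70 became 26.6 and 21.2 with both sets free of myeloid-rich barcodes. Thinned to 2000 UMIs, Tyrobp had a UMI in 93.8% of the 64 NK cells, 14.8% of CD8 T cells and 97.5% of C1q cells. Hcst, the gene of DAP10, had 379 CPM in NK cells and 383 CPM in CD8 T cells, with a ratio of 0.989 (0.856 to 1.14).

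Kinases and scaffolds downstream differed gene by gene. Txk, a Tec family kinase, had 270 CPM in NK cells and 37.0 CPM in CD8 T cells, and Plcg2, a phospholipase that acts below ITAM receptors, had 40.1 CPM in NK cells and 10.6 CPM in CD8 T cells. Sh2d1b1, the SLAM adaptor EAT-2 of NK cells, had 48.1 CPM in NK cells and 5.15 CPM in CD8 T cells, a ratio of 9.34, or 16.8 with both sets free of myeloid-rich barcodes, where Plcg2 had too few counts to compare. Lat, the scaffold of T cell receptor signalling, was lower in NK cells, at 25.7 CPM against 473 CPM in CD8 T cells, a ratio of 0.0543 (0.0310 to 0.0885). Cd247, the ζ chain, had 30.5 CPM in NK cells and 111 CPM in CD8 T cells, whereas Zap70 had 104 CPM in NK cells and 133 CPM in CD8 T cells, with an interval of the ratio that held 1 (0.596 to 1.02).

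**Figure D2:**
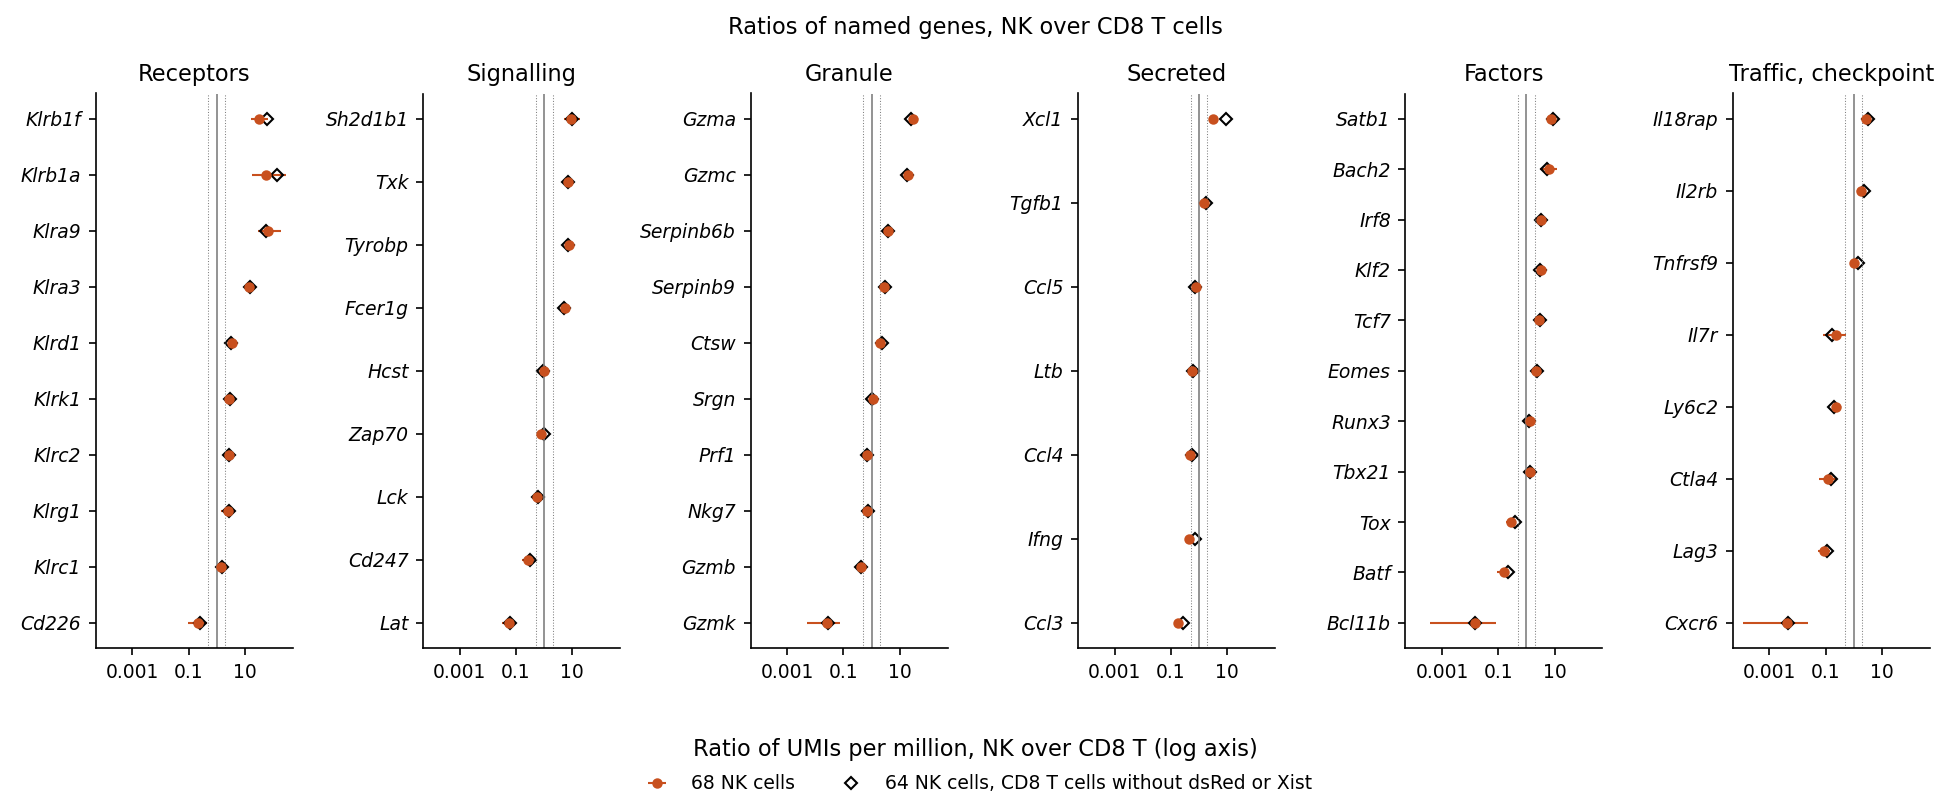
Ratio of CPM, NK over CD8 T cells, on a log axis for named genes in 6 groups, with filled points and 95% exact intervals for 68 NK over 223 CD8 T cells, open diamonds for 64 NK over 182 CD8 T cells without dsRed or Xist, and dotted lines at 2-fold either way. Gzma, at 28.7, and Gzmk, at 0.0252, mark the range of the granule genes, and the diamond of Xcl1 lies to the right of its point.

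Among granule genes, granzyme A was high in NK cells and granzyme K in CD8 T cells. Gzma, the gene of the tryptase granzyme A, had 1839 CPM in NK cells (1734 to 1949) and 64.1 CPM in CD8 T cells (55.5 to 73.6), with a UMI in 55 of 68 NK cells and 24 of 223 CD8 T cells. In single cells of the 64 it ran from 0 to 14553 CPM with a median of 1631. Gzmk, a neighbouring tryptase gene on chromosome 13, had 4.81 CPM in 3 NK cells and 191 CPM in 125 CD8 T cells. Gzma spans chr13:113093825-113100981 and Gzmk chr13:113171608-113225908 (GRCm38, both on the minus strand), and these neighbours had opposite directions. Thinned to 2000 UMIs, Gzma had a UMI in 81.2% of the 64 NK cells, 4.93% of CD8 T cells and 0% of C1q cells.

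Gzmb, the granzyme of cytotoxic T cells that triggers caspases, was lower in NK cells, with 371 CPM (324 to 422) against 869 CPM (837 to 903) in CD8 T cells. The shares of cells were closer, with a UMI in 36 of 68 NK cells and 119 of 223 CD8 T cells. The ratio of 0.426 ran up to 0.701 over the alternatives, with 0.504 without the 4 barcodes and 0.440 with both sets free of myeloid-rich barcodes. Gzmc was at 727 CPM in NK cells and 36.4 CPM in CD8 T cells, but in 15 of 68 NK cells and 14 CD8 T cells, and 1 NK cell gave 40.8% of the NK UMIs. Gzmd and Gzme had 0 UMIs in both sets. Granzyme C was thus found in 15 NK cells and granzyme A in 55.

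Of 14 cytotoxic genes compared, 5 (Gzma, Gzmc, Ctsw, Serpinb9 and Serpinb6b) were 2-fold or more higher in NK cells and 2 (Gzmb and Gzmk) lower, against 4.35% and 10.1% of all genes. Prf1, the pore-forming perforin, had 246 CPM in NK cells and 363 CPM in CD8 T cells, a ratio of 0.677 (0.568 to 0.802). Its direction changed with the handling of depth: thinned to 2000 UMIs it had a UMI in 46.9% of the 64 NK cells and 17.0% of CD8 T cells, and the ratio was 1.34 with every cell thinned to 1000 UMIs, 1.26 in cells of 2000 to 20000 UMIs and 1.10 as a mean over cells. Ctsw, a granule cathepsin, had 711 CPM in NK cells and 345 CPM in CD8 T cells, a ratio of 2.06, or 1.96 against CD8 T cells without dsRed or Xist. Serpinb9 and Serpinb6b, inhibitors that shield a killer from its own proteases, had 159 and 151 CPM in NK cells and 55.4 and 39.0 CPM in CD8 T cells. Nkg7, a granule membrane gene, was abundant in both, at 1592 CPM in NK cells and 2366 CPM in CD8 T cells. Fasl, the death ligand, was scarce, at 48.1 CPM in NK cells and 28.7 CPM in CD8 T cells.

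In the 64 NK cells, 23 had UMIs of Gzma and Gzmb without Gzmc, 21 of Gzma alone of these 3 genes, 7 of all 3, 5 of Gzmb and Gzmc, 3 of Gzma and Gzmc and 5 of none. No NK cell had Gzmb or Gzmc alone of the 3. The part of depth in these combinations was not tested.

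**Figure D3:**
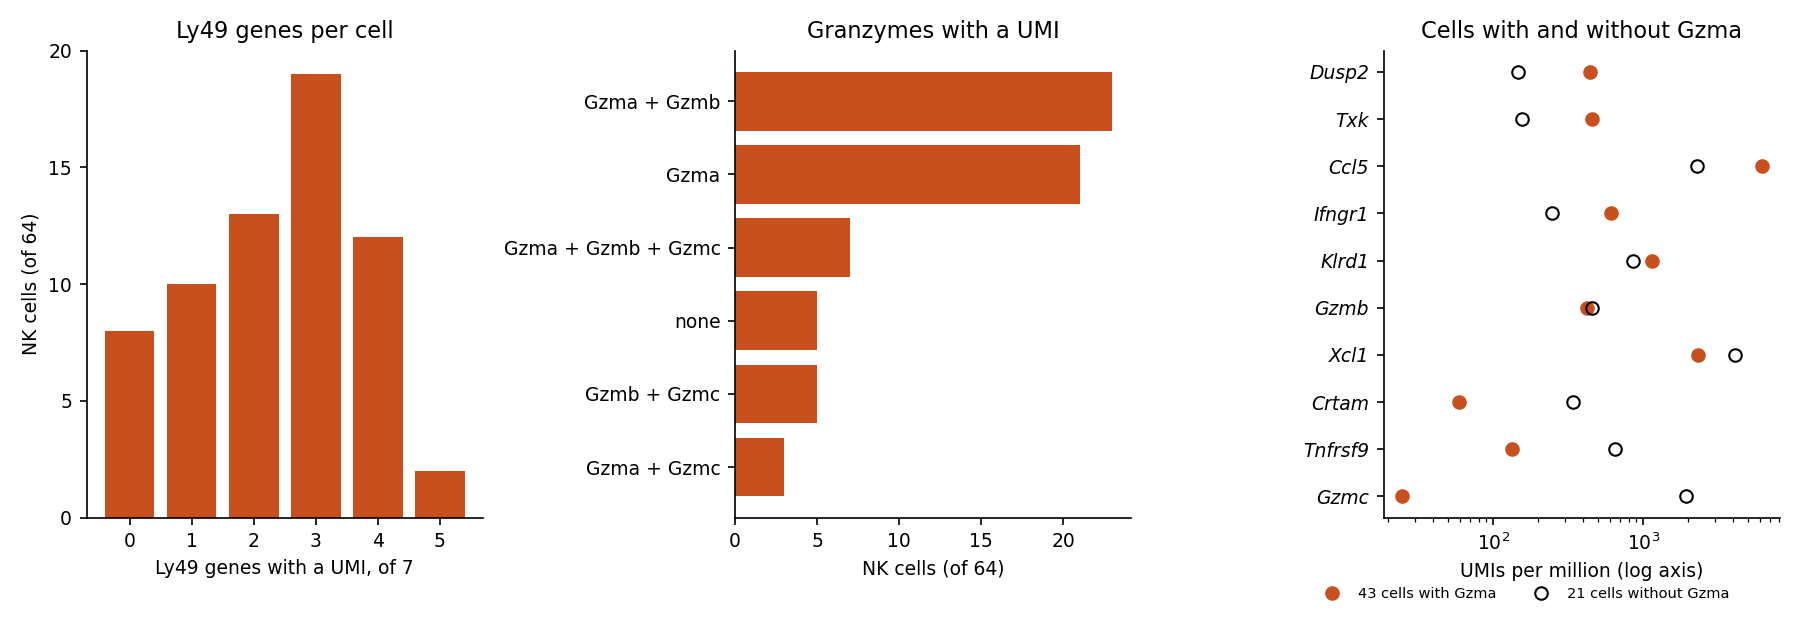
Left, number of the 64 NK cells by how many of 7 Ly49 genes had a UMI; middle, number of the 64 by which of Gzma, Gzmb and Gzmc had a UMI; right, levels of genes (CPM, log axis) in 43 cells with Gzma (filled) and 21 without (open). The Ly49 count peaks at 3 genes in 19 cells, 23 cells hold Gzma with Gzmb, and Gzmc lies at 24.6 in cells with Gzma and 1929 in cells without.

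Of the secreted factors, Xcl1 was higher in NK cells and Ccl3 and Ccl4 were lower. Of 13 secreted factor genes compared, 1 was 2-fold or more higher in NK cells and 6 were lower, against 4.35% and 10.1% of all genes. The median ratio was 0.557. Xcl1 had 2580 CPM in NK cells (2456 to 2709) and 831 CPM in CD8 T cells (800 to 864). In CD8 T cells it was concentrated in those with dsRed or Xist, where it had 1945 CPM, and against the other 182 CD8 T cells, at 340 CPM, the ratio was 7.59 (6.95 to 8.30) in place of 3.10. In single cells of the 64 NK cells Xcl1 had a median of 1542 CPM and a highest value of 17010 CPM. Thinned to 2000 UMIs it had a UMI in 84.4% of the 64 NK cells, 21.5% of CD8 T cells and 0% of C1q cells.

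Ccl5, a chemokine stored by effector lymphocytes, was the most abundant of the list in both sets, at 3732 CPM in NK cells and 4633 CPM in CD8 T cells. Ccl3 had 217 CPM in NK cells and 1204 CPM in CD8 T cells, and Ccl4 had 541 CPM in NK cells and 1132 CPM in CD8 T cells. Without the 4 barcodes the ratio of Ccl4, 0.478 with all cells, was 0.573, and with both sets free of myeloid-rich barcodes it was 0.499. Ccl3 and Ccl4 are also made by macrophages, with 344 and 1165 CPM in free RNA, so their levels in NK cells lay below those of free RNA, and 1 NK cell gave 45.2% of the Ccl3 UMIs. Ifng, the gene of interferon-γ, had 160 CPM in NK cells and 357 CPM in CD8 T cells, a ratio of 0.449 (0.362 to 0.552). The ratio of Ifng was 0.543 without the 4 barcodes, 0.483 with both sets free of myeloid-rich barcodes and 0.581 against CD8 T cells without dsRed or Xist. It had a UMI in 35 of 68 NK cells and 134 of 223 CD8 T cells. After thinning to 2000 UMIs the shares with Ifng were 32.8% of the 64 NK cells and 31.8% of CD8 T cells. Tgfb1 had 297 CPM in NK cells and 190 CPM in CD8 T cells, and Ltb, a lymphotoxin subunit, had 274 CPM in NK cells and 493 CPM in CD8 T cells. Flt3l, a growth factor for dendritic cells, was low in both, at 28.9 CPM in NK cells and 36.7 CPM in CD8 T cells.

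T cell receptor genes separated the sets, with an exception at the β locus. Trac, the α constant gene, had 9.63 CPM in NK cells and 690 CPM in CD8 T cells, against 62.8 CPM in free RNA, and was found in 6 of 68 NK cells. Trbc2 had 146 CPM in NK cells and 1542 CPM in CD8 T cells. Trbc1, in contrast, had 497 CPM in NK cells (444 to 556) and 804 CPM in CD8 T cells (773 to 836), and had a UMI in 62 of 68 NK cells and 159 of 223 CD8 T cells. Thinned to 2000 UMIs, Trbc1 was in 79.7% of the 64 NK cells, 57.8% of CD8 T cells and 0.118% of C1q cells. Trbc1 and Trbc2 are near copies of each other and counts may be split between them, and these counts do not tell germline from rearranged transcripts.

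Trdc, the δ constant gene, had 49.7 CPM in 20 of 68 NK cells and 8.37 CPM in 9 of 223 CD8 T cells. Its 26 UMIs in CD8 T cells lay mostly (24) in those with dsRed or Xist, and against the other 182, which held 2, the ratio was 53.6 (13.6 to 462). Of the surface genes shared by T and NK cells, Cd7 had 181 CPM in NK cells and 72.1 CPM in CD8 T cells, and Cd27, a marker of less mature mouse NK cells, had 119 CPM in NK cells and 165 CPM in CD8 T cells. Cd5 and Cd6 were lower in NK cells, at 1.60 and 16.0 CPM against 94.0 and 137 CPM in CD8 T cells. Cd28 had 97.9 CPM in 29 NK cells and 166 CPM in 178 CD8 T cells. Of 11 genes of this list compared, 2 (Trdc and Cd7) were 2-fold or more higher in NK cells and 4 lower, against 4.35% and 10.1% of all genes.

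Of 14 NK transcription factor genes compared, 3 (Eomes, Irf8 and Klf2) were 2-fold or more higher in NK cells and 1 was lower, against 4.35% and 10.1% of all genes. Eomes had 143 CPM in NK cells (115 to 176) and 63.4 CPM in CD8 T cells (54.9 to 72.9), a ratio of 2.25 (1.73 to 2.91). Tbx21, the gene of T-bet, had 41.7 CPM in NK cells and 31.6 CPM in CD8 T cells, with a ratio of 1.32 (0.823 to 2.05). Irf8 had 661 CPM in NK cells and 205 CPM in CD8 T cells, and the 64 NK cells had a median of 580 CPM, so the value did not come from the 4 barcodes alone. Runx3 had 228 CPM in NK cells and 164 CPM in CD8 T cells, Id2 had 571 CPM in NK cells and 745 CPM in CD8 T cells, and Zfp683, the gene of Hobit, had 0 UMIs in NK cells and 4 in CD8 T cells. Prdm1, the gene of Blimp-1, was the lower one, at 17.7 CPM in NK cells and 38.6 CPM in CD8 T cells, a ratio of 0.457, or 0.266 with both sets free of myeloid-rich barcodes.

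Factors named for T cells were not uniformly low in NK cells. Of 11 compared, 5 were 2-fold or more higher in NK cells and 3 lower, against 4.35% and 10.1% of all genes. Satb1, a chromatin organiser, had 193 CPM in NK cells and 25.1 CPM in CD8 T cells, Tcf7, the gene of TCF-1, had 124 CPM in NK cells and 43.5 CPM in CD8 T cells, and Bach2 had 33.7 CPM in NK cells and 5.47 CPM in CD8 T cells. Nr4a3 was also among the higher ones at 56.2 CPM in NK cells and 21.6 CPM in CD8 T cells. The fifth, Bcl6, had 20 UMIs in NK cells, of which 11 came from the 4 barcodes, and without them it had too few counts to compare. Bcl11b, which fixes T cell identity, had 1 UMI in NK cells and 337 in CD8 T cells. Tox and Batf, factors of chronically stimulated T cells, had 40.1 and 28.9 CPM in NK cells and 137 and 187 CPM in CD8 T cells.

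Genes of tissue residency and of circulation differed in both directions. Cxcr6, a chemokine receptor of resident lymphocytes and ILC1, had 1 UMI in 1 of 68 NK cells and 1138 UMIs in 161 of 223 CD8 T cells, the lowest ratio of the genes named by size at 0.00438 (0.000111 to 0.0244). Klf2, which promotes circulation, had 178 CPM in NK cells and 55.7 CPM in CD8 T cells, and it also had 231 CPM in free RNA. Itga1, the gene of CD49a of ILC1, had 41.7 CPM in NK cells and 26.7 CPM in CD8 T cells, with an interval of the ratio that held 1 (0.964 to 2.45). Itgae, the gene of CD103, had 16 UMIs in NK cells, of which 15 came from the 4 barcodes. Of 12 residency genes compared 2 were 2-fold or more higher in NK cells and 5 lower, against 4.35% and 10.1% of all genes. Among 10 circulation genes 3 were higher and 3 lower.

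Other genes of circulating NK cells were low or not found. Cx3cr1 had 0 UMIs in NK cells and 74 in CD8 T cells, at least 4.95-fold lower with the floor of 3 counts, and at least 2.78-fold lower with both sets free of myeloid-rich barcodes. Without the C1q limit its ratio was 0.831. S1pr1, S1pr4 and S1pr5, which guide exit from tissue, had 5, 12 and 4 UMIs in NK cells and 83, 117 and 2 in CD8 T cells. Itga2, the gene of CD49b, had 21 UMIs in 17 NK cells and 7 in CD8 T cells, too few to compare. Ly6c2 had 122 CPM in 10 NK cells and 528 CPM in 153 CD8 T cells.

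Of 13 homing and adhesion genes compared, 2, among them Cxcr4, were 2-fold or more higher in NK cells and 1 (Ccr7) was lower, against 4.35% and 10.1% of all genes. Cxcr4 had 41.7 CPM in NK cells and 13.2 CPM in CD8 T cells. Ccr2 had 260 CPM in 47 NK cells and 161 CPM in 84 CD8 T cells, and 231 CPM in free RNA. Its ratio of 1.61 was 3.27 (2.63 to 4.06) with both sets free of myeloid-rich barcodes. That of Ccr7, 0.459, was then 0.696, and 0.605 against CD8 T cells without dsRed or Xist. Cxcr3, the receptor for interferon-induced chemokines, had 51.3 CPM in NK cells and 75.7 CPM in CD8 T cells. Itgb1 had 557 CPM in NK cells and 318 CPM in CD8 T cells, a ratio of 1.75 that was 2.08 against CD8 T cells without dsRed or Xist, while Itgal and Itgb2, the chains of LFA-1, had 146 and 242 CPM in NK cells and 152 and 289 CPM in CD8 T cells.

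Checkpoint and exhaustion genes were the list lowest in NK cells, with a median ratio of 0.337. Among 12 compared, 0 were 2-fold or more higher and 8 were lower, against 4.35% and 10.1% of all genes. Pdcd1, the gene of PD-1, had 0 UMIs in NK cells and 305 in 90 of 223 CD8 T cells, at least 20.4-fold lower with the floor of 3 counts. Lag3 had 28.9 CPM in NK cells and 322 CPM in CD8 T cells, a ratio of 0.0897 (0.0529 to 0.142). Ctla4 had 14.4 CPM in NK cells and 118 CPM in CD8 T cells. Havcr2, the gene of TIM-3, had 6 UMIs in NK cells, all of them in the 4 barcodes, and 207 in CD8 T cells. The costimulatory receptors parted: Tnfrsf4 (OX40) had 1 UMI in NK cells and 551 in CD8 T cells, whereas Tnfrsf9 (4-1BB) had 305 CPM in NK cells and in CD8 T cells (ratio 1.00, 0.851 to 1.17) and Tnfrsf18 (GITR) had 201 CPM in NK cells and 176 CPM in CD8 T cells. The intervals of the ratios of Cd96 and Rgs16 held 1. Tigit had 3 UMIs in NK cells and 8 in CD8 T cells, too few to compare.

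Cytokine receptors differed gene by gene. Il2rb, the chain shared by IL-2 and IL-15 receptors, had 576 CPM in 63 of 68 NK cells and 311 CPM in 167 of 223 CD8 T cells, a ratio of 1.85 (1.64 to 2.09) that was 2.20 without the 4 barcodes. Il2rg, the common γ chain, had 215 CPM in NK cells and 205 CPM in CD8 T cells (ratio 1.05, 0.865 to 1.27), and Il7r was lower in NK cells, at 9.63 CPM against 41.9 CPM. Il18rap and Il18r1, the IL-18 receptor chains, had 93.1 and 117 CPM in NK cells and 34.1 and 82.4 CPM in CD8 T cells. Ifngr1 had 404 CPM in NK cells and 201 CPM in CD8 T cells, a ratio of 2.02, or 1.72 against CD8 T cells without dsRed or Xist. Il21r was lower in NK cells, at 36.9 CPM against 132 CPM in CD8 T cells, and Tgfbr2 was at 35.3 CPM against 66.3 CPM, a ratio of 0.532 that was 0.478 against CD8 T cells without dsRed or Xist. Kit had 22 UMIs in 15 NK cells and 7 in CD8 T cells, too few to compare. Of 16 genes compared, 2 were 2-fold or more higher in NK cells and 2 lower, against 4.35% and 10.1% of all genes.

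**Figure D4:**
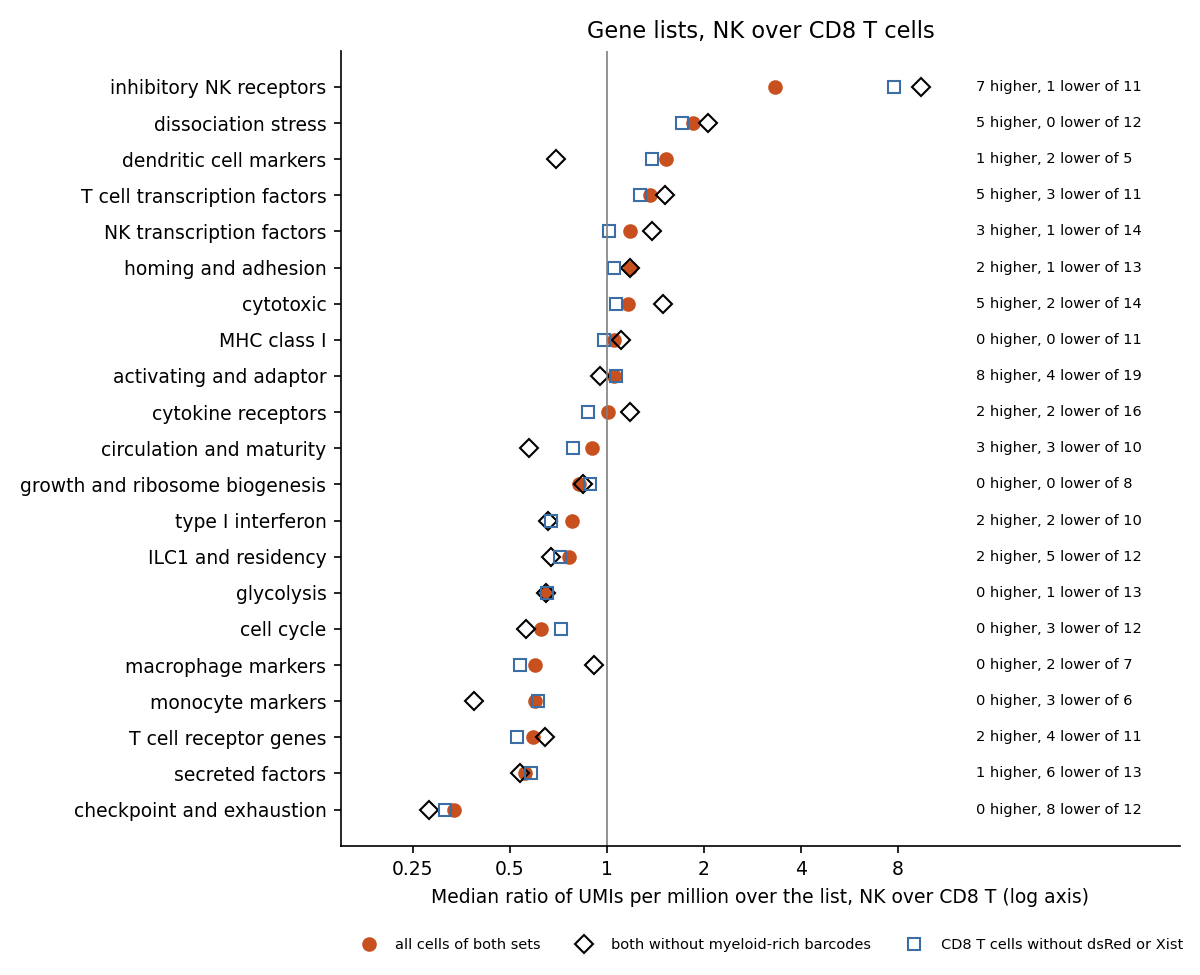
Median ratio of each gene list with 5 or more genes compared, NK over CD8 T cells, on a log axis, for all cells (filled points), both sets without myeloid-rich barcodes (diamonds) and CD8 T cells without dsRed or Xist (squares), with the number of genes 2-fold or more higher or lower of those compared at right. The list named for inhibitory NK receptors lies highest (3.34) and checkpoint genes lowest (0.337), and the dendritic cell markers move across 1, 1.52 with all cells and 0.698 without the myeloid-rich barcodes.

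Of 13 glycolysis genes, 0 were 2-fold or more higher in NK cells and 1 (Hk2) was lower, against 10.1% of all genes lower, with a median ratio of 0.647. Hk2 was no longer 2-fold lower without the 4 barcodes or against CD8 T cells without dsRed or Xist, where 0 of 13 were. Gapdh had 1770 CPM in NK cells and 3350 CPM in CD8 T cells, and Ldha 842 CPM in NK cells and 1301 CPM in CD8 T cells. Both are abundant in free RNA, at 3306 and 1638 CPM. Of 12 cell cycle genes 0 were 2-fold or more higher and 3 lower, against 4.35% and 10.1% of all genes, with a median of 0.628. Against CD8 T cells without dsRed or Xist 1 of 12 was lower, near the 8.38% of all genes, with a median of 0.724. With both sets free of myeloid-rich barcodes 5 of 12 were lower, and 11.4% of all genes. A cell cycle sum of 2000 CPM or more was reached by 5 of 68 NK cells, or 7.35% (2.43 to 16.3), and 40 of 223 CD8 T cells, or 17.9% (13.1 to 23.6). Without the 4 barcodes it was reached by 4 of 64 NK cells, or 6.25%. Among CD8 T cells without dsRed or Xist 23 of 182 reached it, or 12.6% (8.18 to 18.4). Cells that reached it were deeper than the rest of the 68 or the 223, with medians of 23100 against 6090 UMIs in NK cells and 28249 against 6647 UMIs in CD8 T cells, and the part of depth was not tested. Of 8 growth and ribosome biogenesis genes none passed 2-fold in either direction with all cells. Without the 4 barcodes 2 of 8 were 2-fold or more lower, against 13.4% of all genes, with Myc at 0.469 and Slc7a5 at 0.384. With both sets free of myeloid-rich barcodes 1 of 8 was, Slc7a5 at 0.336, against 11.4% of all genes.

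Of 10 type I interferon genes 2 were 2-fold or more higher in NK cells and 2 lower, against 4.35% and 10.1% of all genes, with a median ratio of 0.784. Without the 4 barcodes the median was 0.544, and with both sets free of myeloid-rich barcodes it was 0.660. The 4 barcodes held 42 of the 64 NK UMIs of Isg15 and 12 of the 15 of Oasl2. Usp18, 2.67-fold higher without those barcodes, stood at 36.9 CPM in NK cells and 11.6 CPM in CD8 T cells, while Isg20 had 19.3 CPM in NK cells and 67.3 CPM in CD8 T cells. Of 11 MHC class I genes 0 passed 2-fold in either direction, with a median ratio of 1.06 and B2m at 2831 CPM in NK cells and 2754 CPM in CD8 T cells. Genes known to be induced when tissue is dissociated leaned toward NK cells, with 5 of 12 at 2-fold or more higher and a median ratio of 1.85. Jun had 228 CPM in NK cells and 87.9 CPM in CD8 T cells, and Junb 2163 CPM in NK cells and 1309 CPM in CD8 T cells. The part of dissociation in the levels above was not tested.

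Among the leading genes outside the lists, Car2, a carbonic anhydrase, had 252 CPM in 50 of 68 NK cells and 10.3 CPM in 24 CD8 T cells. Spry2, a brake on receptor tyrosine kinase signalling, had 302 CPM in 56 NK cells and 18.0 CPM in 32 CD8 T cells. Both were spread over the NK cells, with no cell giving over 10.8% of their UMIs. Anxa1 had 173 CPM in NK cells and 26.4 CPM in CD8 T cells, and Cd9 had 223 CPM in NK cells and 51.2 CPM in CD8 T cells. The ratio of Anxa1, 6.56, was 12.6 with both sets free of myeloid-rich barcodes. Anxa1 and Cd9 are found in macrophages, with 266 and 188 CPM in free RNA. Of the genes lower in NK cells, Themis, a regulator of T cell receptor signals, had 1 UMI in NK cells and 291 in CD8 T cells, and Nrn1 had 1 in NK cells and 181 in CD8 T cells.

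The NK cells varied among themselves in granzyme A. Each cell was thinned to 1000 UMIs and split by whether a Gzma UMI remained, which gave 44 cells with and 24 without, and 43 with and 21 without once the 4 barcodes were left out. Of the cells without, 11 had a Gzma UMI before thinning. Gzma was at 3509 CPM in cells with and 221 CPM in cells without, and the median depth was 5759 UMIs in cells with and 8403 UMIs in cells without, so the split is one of level and not of presence. Of 2797 genes compared over all 68 cells, 141 (5.04%) were 2-fold or more higher in cells with Gzma and 187 (6.69%) lower. Without the 4 barcodes these were 100 (4.34%) and 93 (4.04%) of 2303. Lyz2, Cst3, H2-Eb1 and H2-Ab1 led the split of all 68 cells and rested on the 4 barcodes, so the values below are from the 64.

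Cells with Gzma had more Ccl5, at 6170 CPM against 2283 CPM in cells without, a ratio of 2.70 (2.45 to 2.98). Dusp2 (442 and 147 CPM), Txk (456 and 156 CPM), Ifngr1 (614 and 247 CPM) and Zfp36l2 (969 and 407 CPM) were the other leading genes in cells with and without Gzma. Eomes was 2.05-fold (1.27 to 3.39) as high in cells with Gzma. The Ly49 genes Klra4 and Klra8, which belong to the rule, had 544 and 597 CPM in cells with Gzma and 177 and 147 CPM in cells without. Ncr1, the rule gene of NKp46, had 347 CPM in cells with Gzma and 398 CPM in cells without.

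On the other side stood Gzmc, with 24.6 CPM in 4 cells with Gzma and 1929 CPM in 11 cells without, of which 1 cell gave 41.5%. Tnfrsf9 had 133 CPM in cells with Gzma and 653 CPM in cells without, Crtam 59.7 CPM with and 342 CPM without, and Xcl1 2327 CPM with and 4087 CPM without. In cells without Gzma, 1 cell gave 35.8% of the Tnfrsf9 UMIs and 1 cell gave 34.2% of the Crtam UMIs. In cells with Gzma, 1 cell gave 47.1% of the Crtam UMIs. Tnfrsf9 and Crtam are known as genes of activated lymphocytes. Of 10 glycolysis genes compared, 0 were 2-fold or more higher in cells with Gzma and 7 lower, against 4.34% and 4.04% of all genes. Their median ratio was 0.481, with Pgk1 at 207 CPM in cells with and 636 CPM in cells without, of which 1 cell gave 38.1%. In the split of all 68 cells 1 of 11 was lower, with a median of 0.586. Of 9 cell cycle genes 5 were lower in the 64 cells, with a median of 0.446. Of the 64 cells, the 4 with a cell cycle sum of 2000 CPM or more held 80.3% of the cell cycle UMIs. The part of such single cells in these ratios was not tested. Gzmb was at 425 CPM in cells with Gzma and 454 CPM in cells without, and Prf1 at 263 CPM with and 320 CPM without, each with an interval of the ratio that held 1. Spp1 was lower in cells with Gzma, but 1 cell on each side gave 83.3% and 54.1% of its UMIs.

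By spatial barcode, a cell was assigned where 1 barcode had at least 10 counts and 2 times the next, which placed 36 of 68 NK cells, 91 of 223 CD8 T cells and 2241 of the 3945 other kept cells. Of the assigned NK cells 12 (33.3%, 18.6 to 51.0) carried ZC1, 8 (22.2%, 10.1 to 39.2) ZC2 and 16 (44.4%, 27.9 to 61.9) ZC3. Of the assigned CD8 T cells 13 (14.3%) carried ZC1, 20 ZC2 and 58 (63.7%) ZC3, and of the other cells 2.28%, 2.54% and 95.2%. The ZC1 interval of NK cells lay above that of the other kept cells (1.70 to 2.98). It overlapped that of CD8 T cells (7.83 to 23.2). These intervals count cells of 1 sample and say nothing of other tumours.

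The barcodes were unequal in free counts, of which 15.6% were ZC1, 26.4% ZC2 and 58.0% ZC3. A cell with counts in these proportions would be assigned to ZC3 by the first rule. Median spatial counts per cell were 634 in NK cells, 761 in CD8 T cells and 1647 in the other cells. The part of free counts and of depth in the shares was not tested. With each share divided by that of the free counts, 49 NK cells were assigned, 49.0% to ZC1 (34.4 to 63.7), 30.6% to ZC2 and 20.4% to ZC3. That rule also asked for a smaller lead over the next barcode and set its minimum on the total spatial counts, so more than the division differs. The same rule gave 41.2%, 33.1% and 25.7% in CD8 T cells and 27.1%, 24.9% and 47.9% in the other cells. ZC1 stood above its share in the other cells under both rules, and the largest share of NK cells was in ZC3 by the first rule and in ZC1 by the second.

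**Figure D5:**
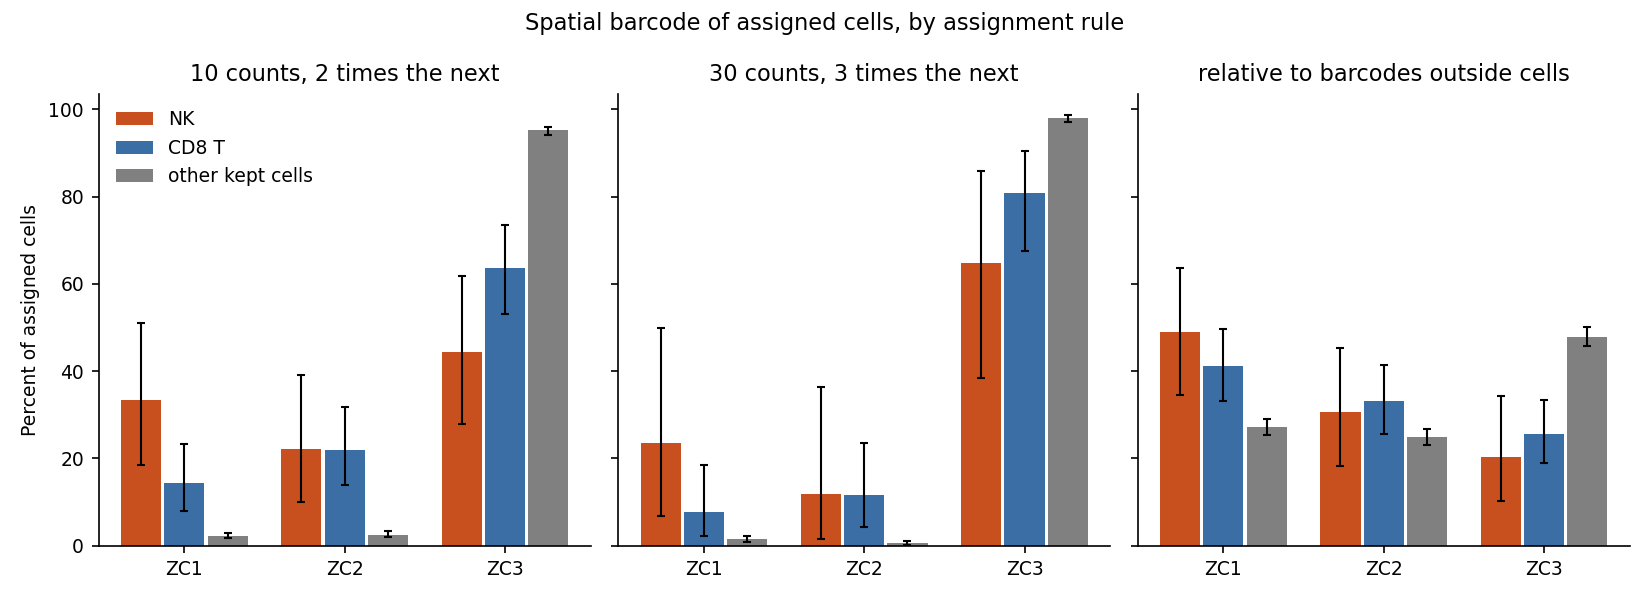
Percent of assigned cells with each spatial barcode, with 95% exact Clopper-Pearson bars, in NK cells, CD8 T cells and the other kept cells, by the rule of 10 counts and 2 times the next (left), by 30 counts and 3 times the next (middle), and relative to free barcodes (right). The ZC1 share is 33.3% in NK cells, 14.3% in CD8 T cells and 2.28% in other cells by the first rule. The rule at right also asks for a smaller lead over the next barcode.

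The NK cells per barcode numbered at most 24 and were not compared further, and only their values are given, without the 4 barcodes. By the 10-count rule Gzma had 739 CPM in 12 ZC1 cells, 3782 CPM in 7 ZC2 cells and 3026 CPM in 15 ZC3 cells. Relative to free counts it had 1445, 2804 and 3591 CPM in 24, 13 and 10 cells. Xcl1 had 2853, 1929 and 1867 CPM by the 10-count rule and 2714, 4519 and 2236 CPM by the other. The values of Gzma were lowest in ZC1 by both rules, and those of Xcl1 changed order between them.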

How the data were processed

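Gene expression and spatial barcode libraries of the same sorted cells were counted in 1 table. Per the submitters' processing notes, reads were processed with Cell Ranger 4.0.0 and the build was mm10, and no further settings were found in the labels. The deposited table holds unfiltered UMI counts, whole numbers by a check of the values, for 6794880 barcodes, 31055 gene features and 3 spatial features. Of 4476 barcodes with at least 1000 UMIs, 4236 passed the limits on genes and mitochondrial share. The members and the gene lists (26 lists, 311 genes) were chosen with earlier results of these data known.

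From the deposited counts, UMIs were summed over each set of cells and scaled to CPM, with exact Poisson intervals for levels, exact Clopper-Pearson intervals for shares and exact conditional binomial intervals for ratios, all at 95%. Comparisons took genes whose UMIs in the 2 sets came to 30 or more, with 3 or more expected in the smaller set; where a set had no UMI, a floor of 3 counts over that set stood in for it. Genes of the rule were left out of these comparisons. The genes named were the 10 highest and 10 lowest ratios (5 and 5 for the split by Gzma) of those reaching 100 UMIs and 10% of the higher set, members of 8 lists of NK receptor, granule, secreted, transcription factor, residency and circulation genes, and the 2 highest and 2 lowest of each other list. Other genes named, such as Trbc1, Il2rb, Tnfrsf9, Ccr2 and Gapdh, were chosen after their values were seen. No doublet caller was run, and the myeloid-rich barcodes were left out as an alternative chosen after seeing the data, as were the CD8 T cells with dsRed or Xist. Some members of the lists are not reported here. The code was tested on simulated data. Python 3.11.15 was used with matplotlib 3.10.9, pandas 2.3.3, scipy 1.17.1 and numpy 2.4.6.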

Additional observations from a re-analysis of the deposited data

How the results depend on the processing

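The alternatives changed the cell limits, the receptor, CD3 and C1q limits, depth, averaging, free RNA, the gene minimum and the barcode rule, and left out single sets of cells. Of 373 values of single genes 326 stayed within 1.5 times, of 417 list medians 387 did, and of 96 other values 85 stayed within 1.5 times or within their interval. Genes 2-fold or more higher in NK cells (341) numbered 59 with every cell thinned to 1000 UMIs and 124 with a minimum of 100 UMIs, and genes lower (792) numbered 134 and 260, as fewer genes could be compared. NK cells made up 2.10% of kept cells without the C1q limit. Of assigned NK cells 64.7% carried ZC3 with 30 counts and 3 times the next, and 20.4% relative to free barcodes. Genes higher in cells with Gzma (141) numbered 24 with a minimum of 100 UMIs, and genes lower (187) numbered 36 with that minimum, 117 in cells of 2000 to 20000 UMIs and 93 without the 4 myeloid-rich barcodes. The median log2 ratio of the dendritic cell markers, 0.61, was -1.38 with at least 5 receptor UMIs, -0.16 in cells of 2000 to 20000 UMIs, -1.03 without the NK cell with the most UMIs, -1.35 without the 4 barcodes, -2.33 with CD8 T cells with dsRed or Xist also left out, and -0.52 with both sets free of myeloid-rich barcodes. Without the C1q limit the ratios of Tyrobp and Fcer1g were 1.89 and 1.25. No paired analysis was possible because all cells came from 1 sample of cells, with a gene expression and a spatial barcode library.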
